A study of Mus musculus with 8 samples.

Results

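The regions described here are stretches of accessible chromatin that were absent from the strongest ATAC-seq peaks of squamous cell carcinoma (SCC) cells with wild-type FAK and present among the strongest peaks of most libraries of the related lines. They were selected on measured values: the peaks with the highest −log10 p were taken from each of 8 libraries, to the number held by the shortest list, and overlapping peaks were merged into 40309 regions. A region was kept when it was called in neither FAK-WT library and in at least 4 of the 6 FAK-/-, FAK-nls and FAK-kd libraries. This gave 1203 regions, or 2.98% of all. Because the calls chose them, their presence and absence are a description and carry no test.

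Lines of mouse cutaneous SCC cells, 4 in number, were profiled with 2 replicate libraries each. The tumours had been induced with DMBA and TPA in FVB mice that carried floxed alleles of FAK and the K14CreER transgene (genotype K14CreER FAKflox/flox), in which a keratin promoter drives an inducible Cre, and the labels give Ha-Ras as the driver gene. FAK was deleted in the cultured cells with 4-hydroxytamoxifen, so all 4 lines share that deletion, and the 3 re-expressing lines were made from a FAK-/- clone. FAK-/- cells lack the kinase. FAK-WT cells re-express wild-type FAK from a retrovirus. FAK-nls cells express FAK with R177A, R178A, R190A, R191A, R216A and R218A, which impair its nuclear localization, and FAK-kd cells express the kinase-deficient K454R form. Line and condition cannot be told apart, since each form of FAK was studied in a single line.

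FAK is a cytoplasmic tyrosine kinase that relays signals from integrins at focal adhesions, and a fraction of it enters the nucleus. ATAC-seq uses a transposase that inserts into DNA not covered by nucleosomes, so its peaks mark promoters, enhancers and other regulatory elements. In epithelial tumour cells, many distal accessible elements carry sites for AP-1, the family of Jun and Fos dimers that acts downstream of RAS and integrin signalling.

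The wording that such regions are open unless wild-type FAK is present did not hold in the complete peak lists, and the regions are therefore called by their rule. When all deposited peaks were read instead of the strongest ones, 1139 of the 1203 regions (94.7%) had a peak in FAK-WT replicate 1 and 921 (76.6%) in FAK-WT replicate 2. A peak in both was found for 913 regions (75.9%, 95% Wilson interval 73.4 to 78.2%), in exactly 1 of them for 234, and in neither for 56 (4.66%, interval 3.6 to 6%). Most of the regions were thus called in FAK-WT cells, at a rank past the limit. In bulk ATAC-seq a weaker peak in fewer cells and a weaker peak in every cell cannot be told apart.

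The sequences of 5 regions are shown, the central 300 bp of each on the plus strand of the RefSeq GRCm38.p6 reference (the mm10 build), which comes from C57BL/6J and not from the FVB strain of these cells. Capitals mark matches to the AP-1 consensus, TGACTCA or TGAGTCA on the printed strand. The Cyp7b1 region had the highest mean strength of all 1203, and the Basp1 region was among the strongest without any FAK-WT peak. The Ncam1 and Iyd regions had an AP-1 match and no FAK-WT peak in either complete list, and the Rbpms region was among the strongest in the promoter of a protein-coding gene. Each is named for the protein-coding gene with the nearest transcription start site (TSS).
Cyp7b1 (chr3:18215623-18215922): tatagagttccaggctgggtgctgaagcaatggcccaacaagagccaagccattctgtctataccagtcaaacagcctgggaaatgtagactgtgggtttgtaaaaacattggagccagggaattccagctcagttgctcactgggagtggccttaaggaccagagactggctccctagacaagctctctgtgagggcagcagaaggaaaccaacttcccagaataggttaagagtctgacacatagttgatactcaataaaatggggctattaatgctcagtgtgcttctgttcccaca
Basp1 (chr15:24748780-24749079): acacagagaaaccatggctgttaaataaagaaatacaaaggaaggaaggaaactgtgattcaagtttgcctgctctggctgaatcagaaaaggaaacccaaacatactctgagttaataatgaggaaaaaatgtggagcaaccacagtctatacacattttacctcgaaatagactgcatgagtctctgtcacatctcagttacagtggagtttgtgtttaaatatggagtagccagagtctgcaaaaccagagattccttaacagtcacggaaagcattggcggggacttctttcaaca
Ncam1 (chr9:49523877-49524176): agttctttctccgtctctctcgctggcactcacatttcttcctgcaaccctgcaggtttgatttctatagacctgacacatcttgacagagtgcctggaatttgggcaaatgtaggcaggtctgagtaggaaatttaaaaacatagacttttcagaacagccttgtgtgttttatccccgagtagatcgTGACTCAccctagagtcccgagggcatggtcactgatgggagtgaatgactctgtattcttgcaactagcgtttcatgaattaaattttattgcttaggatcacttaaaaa
Iyd (chr10:3466145-3466444): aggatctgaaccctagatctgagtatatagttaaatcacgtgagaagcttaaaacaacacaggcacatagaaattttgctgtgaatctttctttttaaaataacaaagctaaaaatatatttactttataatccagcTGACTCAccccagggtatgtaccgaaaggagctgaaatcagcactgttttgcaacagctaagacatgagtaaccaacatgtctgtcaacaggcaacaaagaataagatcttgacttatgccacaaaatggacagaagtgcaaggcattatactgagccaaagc
Rbpms (chr8:33842276-33842575): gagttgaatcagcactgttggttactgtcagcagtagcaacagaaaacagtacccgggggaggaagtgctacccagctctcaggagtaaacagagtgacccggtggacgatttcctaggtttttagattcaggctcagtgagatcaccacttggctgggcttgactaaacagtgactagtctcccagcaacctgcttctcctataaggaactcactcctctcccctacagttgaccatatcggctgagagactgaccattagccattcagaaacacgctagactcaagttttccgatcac

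**Figure D1:**
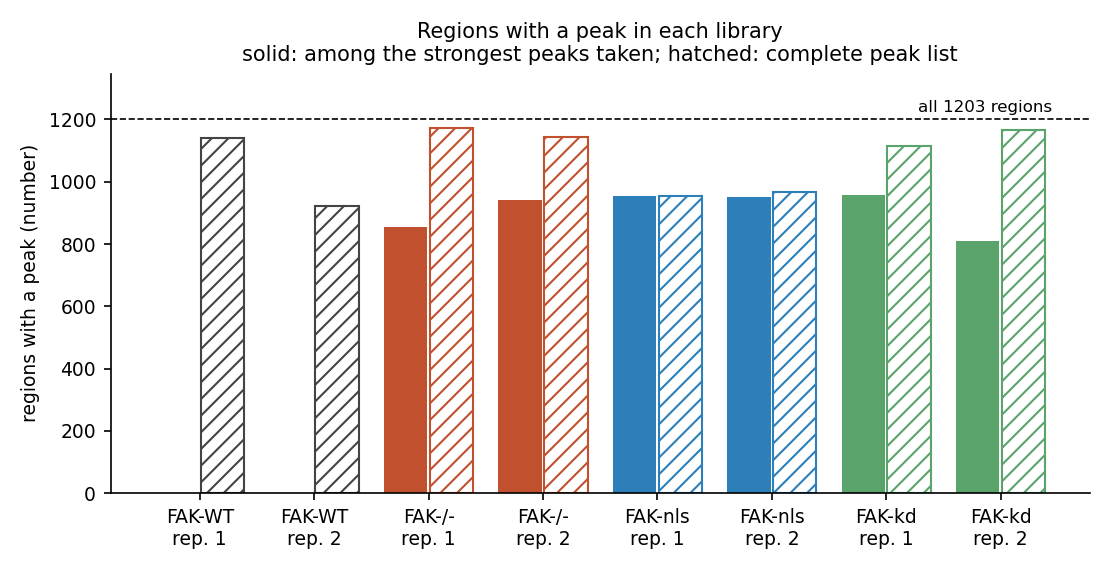
Number of the 1203 regions with a peak in each of the 8 libraries. Solid bars count the strongest peaks, equal in number in every library, and hatched bars count the complete deposited list. The FAK-WT bars are 0 among the strongest peaks by the rule, but reach 1139 and 921 in the complete lists, beside 953 to 1174 in the other 6 libraries.

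Of the 1203 regions, 709 were called in 4 of the 6 libraries, 334 in 5 and 160 in all 6. By line, both FAK-nls libraries had 780 of them (64.8%), both FAK-/- libraries 682 (56.7%) and both FAK-kd libraries 649 (53.9%). All 3 lines contributed: 949 regions (78.9%) were called in at least 1 library of each. Among all 40309 regions, 21279 (52.8%) passed the first condition, a call in at least 4 of the 6 libraries, and 11693 (29.0%) the second, no call in FAK-WT. Regions of this kind were not peculiar to FAK-WT. With FAK-/- as the line that lacked the call, the same rule gave 1305 regions (3.24%), with FAK-nls 1949 (4.84%) and with FAK-kd 984 (2.44%), so that the FAK-WT count of 2.98% lay within the range of the other lines. The 4 sets share libraries and were not tested against each other. Regions exclusive to the FAK-WT pair numbered 334, and those shared by both FAK-WT libraries and at least 4 of the others numbered 17360. The latter are called shared regions and serve as the main comparison below.

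The lists differed in length before the limit was set, from 24402 and 24974 peaks in FAK-nls to 53728 and 39056 in FAK-WT, with 43153 and 35256 in FAK-/- and 32961 and 45956 in FAK-kd. The weakest peak taken therefore had a −log10 p of 8.10 and 5.62 in FAK-WT, 6.13 and 5.17 in FAK-/-, 4.95 and 6.63 in FAK-kd, and 3.36 and 3.77 in FAK-nls. A peak of equal significance could be past the limit in FAK-WT and inside it in FAK-nls. Among FAK-WT peaks at the regions, the median rank was 30697 of 53703 in replicate 1 and 29223 of 39036 in replicate 2. Within 5000 ranks of the limit lay 476 (41.8%) of these peaks in replicate 1 and 470 (51%) in replicate 2. For the other lines the result differed with the length of the lists. Neither complete list had a peak for 147 of the 1305 regions with FAK-/- as the lacking line (11.3%), 84 of the 984 with FAK-kd (8.54%) and 1905 of the 1949 with FAK-nls (97.7%), whose lists ended at or just past the limit. The share of 4.66% for FAK-WT rested on its longer list: with replicate 2 alone, 282 of the 1203 regions had no peak, and with replicate 1 alone 64.

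The identity of the cells was read from calls at the promoters of marker genes among the strongest peaks. Of 11 keratinocyte markers only Itga6, an integrin of basal keratinocytes, was called in all 8 libraries, and 9 (Krt5, Krt14, Trp63, Dsp, Cdh1, Sfn, Perp, Krt8 and Krt18) were called in none. In the complete lists 7 of these, among them Krt5 and Trp63, still had no promoter peak in any library. Libraries held 1 or 2 of the keratinocyte promoters, 3 to 5 of 8 fibroblast promoters (Col1a2 and Pdgfrb in all 8), 2 of 6 melanocyte promoters (Mitf and Pmel in all 8), none of 5 endothelial and 0 or 1 of 7 immune promoters. The labelled cutaneous SCC identity was therefore not matched by promoter calls at the defining epithelial genes, in FAK-WT as in the other lines. A promoter call is not expression. The FAK-WT libraries lay inside the range of the other 6 for each list except that of fibroblast markers, of which FAK-WT replicate 2 had 3 and the others 4 or 5.

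Peaks at the regions were weak in the libraries that held them. Strength is given as the percentile of a peak's −log10 p among those taken from its own library. Where called, the median was 25.2 and 25.5 in the FAK-/- libraries, 30.3 and 29.5 in FAK-nls, and 23.5 and 22.3 in FAK-kd. In the same libraries, shared regions had medians between 64.4 and 64.8. The 75th percentile of the regions lay at 37.8 to 48.1, close to the 25th percentile of the shared regions at 40.8 to 42.7. Mean line medians were 29.9 ± 0.502 for FAK-nls, 25.3 ± 0.268 for FAK-/- and 22.9 ± 0.834 for FAK-kd (SD, n = 2). These percentiles are the values on which peaks were taken, so they are a description with no test. Of the variance of the 6 medians, 98.0% lay between lines. The share was 50.9% for the 160 regions called in all 6 libraries and 9.52% when the selection was repeated on all deposited peaks.

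**Figure D2:**
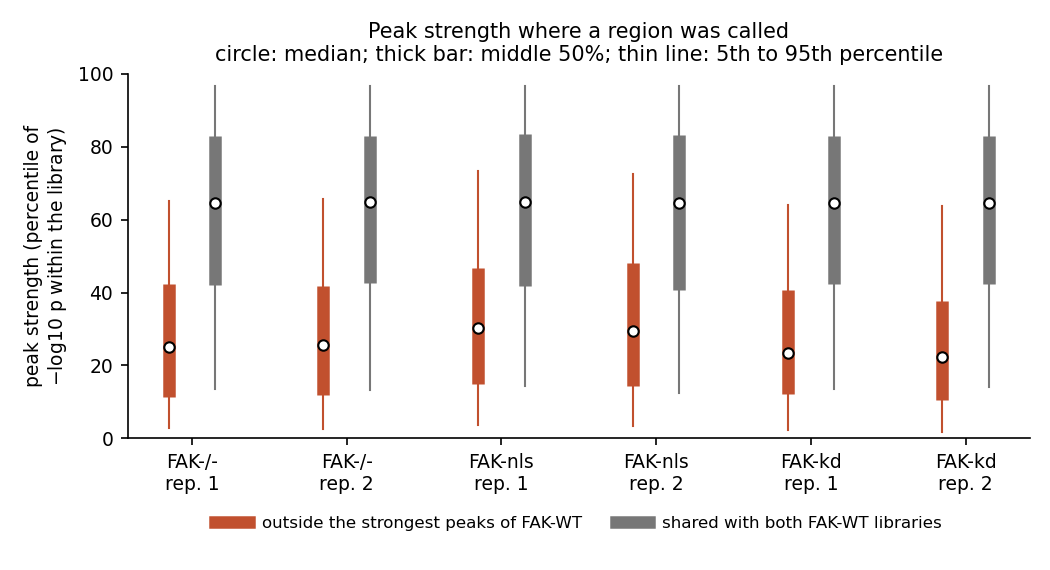
Peak strength, as the percentile of −log10 p within a library, for the 1203 regions and for the 17360 shared regions in the 6 libraries without wild-type FAK. Circles are medians, thick bars the middle 50% and thin lines the 5th to 95th percentiles; the medians of the 1203 regions run from 22.3 to 30.3 and those of the shared regions from 64.4 to 64.8.

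Strength rose with the number of calls. Among regions absent from FAK-WT, the median percentile where called was 13.3 for those seen in 1 of the 6 libraries (6802 regions), 20.3 for 2 (2461 regions), 20.5 for 3 (1227 regions), 23.5 for 4, 28.2 for 5 and 34.1 for 6. Length followed the same order, with medians of 283 bp for 1 call, 665 bp for 4 and 873 bp for 6. A region spans all the peaks merged into it, so its length is tied to the number of calls by construction. The limit of 4 calls cut through the gradient of strength. Just inside it, the strongest regions called in 4 libraries lay in an intron of Ano4, a calcium-activated phospholipid scramblase of the anoctamin family (mean strength over the 6 libraries 52.9), and in intergenic sequence nearest Ptbp2, a neuronal splicing regulator (49.9). Just outside it, with 3 calls, were regions in introns of Anks1b (32.7) and of Fgf1 and the overlapping Arhgap26 (32.1). All 4 were intronic or intergenic.

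Fold enrichment is the ratio of a peak's pileup to the local background estimated by the peak caller. Unscaled, it overlapped between FAK-WT and the other lines. In the complete lists the regions had a median of 4.13 and 3.53 in FAK-WT, 4.25 and 4.04 in FAK-/-, 3.89 and 4.03 in FAK-nls, and 4.00 and 4.60 in FAK-kd. Only FAK-WT replicate 2 fell below all others. At shared regions its median was 4.98, inside the range of 4.60 to 5.76 of the other 6 libraries, while FAK-WT replicate 1 had 5.85. Fold medians at shared regions, here and below, were read among the strongest peaks only, and those of the selected regions in the complete lists. The measures thus differ. For the 913 regions with a peak in both complete FAK-WT lists, a median was taken over the other libraries that called the region among their strongest peaks. Weaker peaks past the limit in the remaining libraries were left out of it. Both FAK-WT values were below this median in 525 (57.5%). No such share was read for other regions. The rule chose regions by the −log10 p of the same peaks. Lower FAK-WT fold enrichment, here and at the regions named below, is therefore a description with no test.

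The strongest region lay in an intron of Cyp7b1 (chr3:18215469-18216076), an oxysterol hydroxylase of bile acid and steroid metabolism. Its percentile was 89.6 and 87.4 in FAK-/-, 87.7 and 85.1 in FAK-nls, and 84.6 and 71.0 in FAK-kd. Fold enrichment was 7.74 and 7.0, 6.07 and 6.16, and 6.24 and 6.53 in the same order, against 5.10 and 3.65 in the complete FAK-WT lists. Both FAK-WT values lay below all 6 others, although FAK-WT peaks were present at ranks 26228 and 31787. The region was chosen on the strength of these peaks, so this order is a description.

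The Basp1 region (chr15:24748536-24749322) was intergenic, 664769 bp from the TSS of Basp1, a membrane-bound protein of neurons. It had no peak in either complete FAK-WT list and was called in all 6 other libraries. Percentiles were 62.4 and 65.8 in FAK-/-, 54.0 and 84.5 in FAK-nls, and 78.6 and 87.4 in FAK-kd, with fold enrichments of 4.52 to 6.85. Of the 10 strongest regions, 2 had no FAK-WT peak in either list. Regions in introns of Rbms3, an RNA-binding protein gene, and of Anxa3, an annexin gene, kept FAK-WT peaks with fold enrichments of 3.42 and 3.71, and of 3.14 and 3.29. The other libraries had 4.47 to 6.24 at Rbms3 and 3.71 to 4.94 at Anxa3. Both FAK-WT replicates were again the lowest. In an intron of Rin2, which encodes a Rab GTPase activator of endosomes, a region nearest the TSS of Naa20 (chr2:145884693-145885465) had 4.48 to 5.41 in the 6 libraries, 3.92 in FAK-WT replicate 1 and no peak in replicate 2.

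Myo10, which encodes an unconventional myosin of filopodia, was the nearest coding gene of 3 regions. The strongest of them (chr15:25559725-25560116), in an intron of the lincRNA gene Gm36642, had fold enrichments of 7.15 and 7.16 in FAK-/-, 4.25 and 5.76 in FAK-nls, 5.16 and 4.82 in FAK-kd, and 4.37 and 3.68 in FAK-WT. FAK-nls replicate 1 lay below FAK-WT replicate 1, so the groups overlapped in unscaled values. FAK-nls replicate 1 also had the lower median at shared regions (4.60 against 5.85). The Myo10 promoter region (chr15:25773824-25775416) was weaker and showed no separation, with 3.54 and 3.36 in FAK-WT and 2.90 to 3.81 in the others.

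The next strongest regions without a peak in either complete FAK-WT list followed. The first covered an exon of Sh3d19, an SH3-domain protein gene, and was nearest the TSS of Rps3a1 (chr3:86114589-86115185). It had fold enrichments of 5.78 and 5.19 in FAK-/-, 5.10 and 4.78 in FAK-nls, and 4.74 and 7.48 in FAK-kd. An intronic region of Ncam1, the neural cell adhesion molecule gene (chr9:49523818-49524234), had 6.05 and 4.23, 4.68 and 5.19, and 5.29 and 5.74 in the same order. Both were called in all 6 libraries. The Ank3 promoter region (chr10:69925629-69926833), at a TSS of the gene for the membrane adaptor ankyrin-G, had 4.21 to 5.66 and was also called in all 6. The region nearest Iyd, an iodotyrosine deiodinase gene (chr10:3465950-3466638), was called in 5 and had 3.62 to 7.08. The intergenic region nearest 4930544G11Rik (chr6:66121576-66122168) had a peak in no FAK-kd library either, and 4.63 to 6.32 in the others. It was thus shared by FAK-/- and FAK-nls only.

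**Figure D3:**
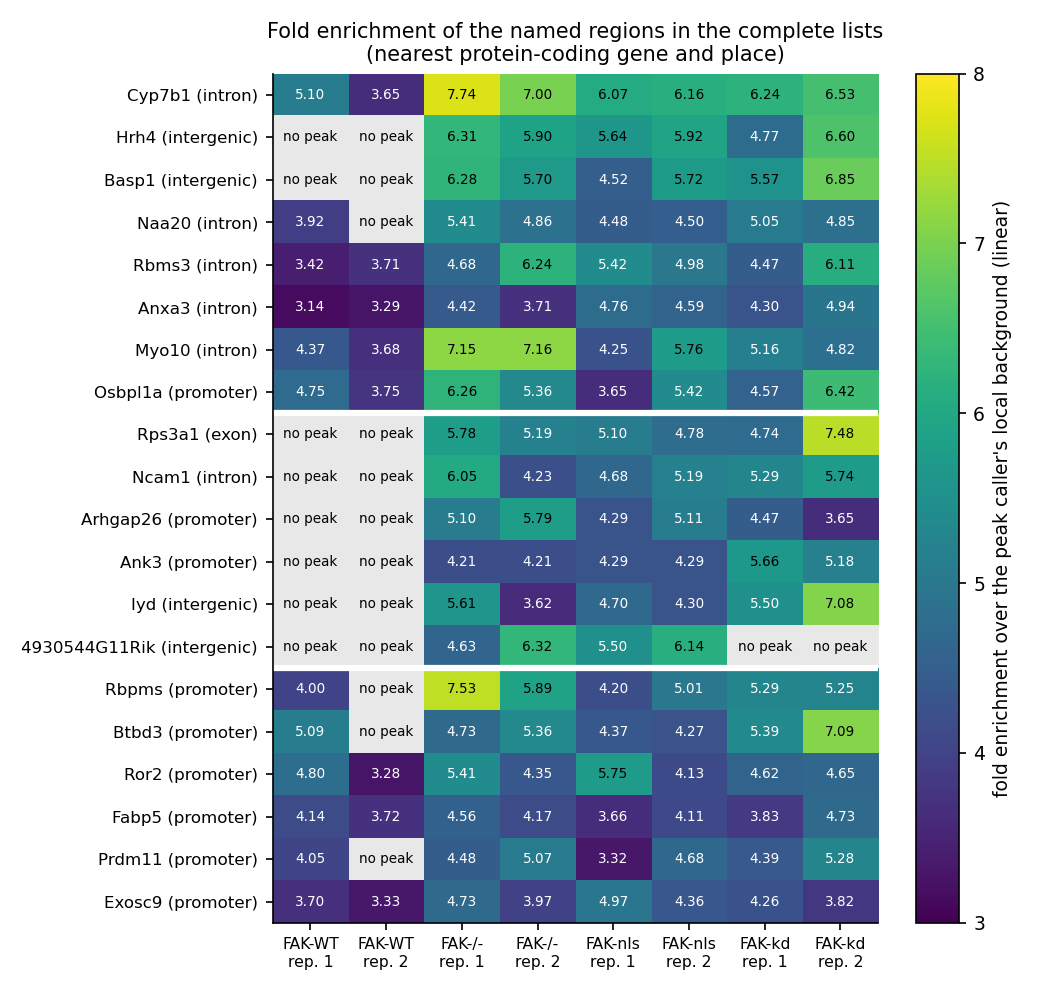
Fold enrichment over local background, on a linear scale, in the complete list of each library for the named regions, labelled by nearest protein-coding gene and place. The top block holds the strongest regions, the middle block the next strongest with no FAK-WT peak and the bottom block the next strongest coding promoters; grey cells have no peak, and values run from 3.14 to 7.74.

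The 56 regions without a FAK-WT peak in either complete list were somewhat stronger than the rest, a difference that was not tested. Their median mean strength was 24.5, against 20.1 for the remaining regions, and 34 of them were called in 4 libraries, 13 in 5 and 9 in all 6. They were shorter, with a median of 613 bp against 712 bp for all 1203. A promoter held 14 of them (25%, interval 15.5 to 37.7%), an intron 21, an exon 5 and intergenic sequence 16.

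The place of the regions was read from the annotation. A promoter, from 500 bp upstream to 2000 bp downstream of any annotated TSS, held 400 of the 1203 (33.3%, interval 30.6 to 36%), an intron 462 (38.4%), intergenic sequence 310 (25.8%) and an exon 31 (2.58%). Over all 40309 regions the shares were 31.7, 35.5, 30.4 and 2.39%. Shared regions were at promoters more often, at 45.3% (interval 44.6 to 46.1%), and FAK-WT pair regions less often, at 12% (interval 8.92 to 15.9%). The same rule gave a promoter share of 33.4% with FAK-/- as the lacking line, 15.8% with FAK-nls and 17.6% with FAK-kd. The share for FAK-WT thus lay beside that for FAK-/-, but it rested on both FAK-WT libraries: with only replicate 1 read for absence, 2593 regions qualified and 43.3% were at promoters, and with only replicate 2 read, 2529 qualified and 28.8% were. Promoters made up 37.1% and 39.6% of the regions called in these libraries and 38.3 to 41.9% in the other 6.

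Of the 400 promoter regions, 308 lay at a protein-coding TSS (25.6% of the 1203, beside 25.8% of all regions). The remainder were at other kinds of transcript, with lincRNA promoters as the largest kind at 24 regions (6% of the 400, beside 4.68% of all promoter regions). Regions at promoters included that of Rbpms, an RNA-binding protein gene (chr8:33842103-33842747), with fold enrichments of 7.53 and 5.89 in FAK-/-, 4.20 and 5.01 in FAK-nls, and 5.29 and 5.25 in FAK-kd. FAK-WT replicate 1 had 4.00 there and replicate 2 no peak. At the promoter of Ror2, which encodes a receptor tyrosine kinase for Wnt ligands (chr13:53285084-53286432), the values were 5.41 and 4.35 in FAK-/-, 5.75 and 4.13 in FAK-nls, 4.62 and 4.65 in FAK-kd, and 4.80 and 3.28 in FAK-WT. FAK-WT replicate 1 exceeded 4 of the 6 other libraries, so the groups overlapped. Fabp5, an epidermal fatty acid-binding protein gene (chr3:10012207-10013607), had 3.66 to 4.73 in the 6 libraries and 4.14 and 3.72 in FAK-WT, again with overlap. At Btbd3 (chr2:138278288-138278744) the FAK-WT replicates differed most, with 5.09 at rank 24461 in replicate 1 and no peak in replicate 2. Promoter regions of Exosc9, which encodes a subunit of the RNA exosome, and of Prdm11 had FAK-WT values of 3.70 and 3.33, and of 4.05 with no peak in replicate 2.

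AP-1 matches were less frequent in the distal regions than in distal shared regions. TGACTCA or TGAGTCA, sought on both strands, occurred in the central 500 bp of 423 of the 1203 regions (35.2%, interval 32.5 to 37.9%), beside 38.9% of all regions and 36.7% of shared regions. With the rule applied to all deposited peaks the share was 37.2%, above the 35.3% of all regions then formed. Promoters held few matches (12.5%). Outside promoters, 373 of 803 regions had one (46.5%, interval 43.0 to 49.9%), against 57.9% of 9494 shared regions (interval 56.9 to 58.9%) and 50.3% of all. Distal regions selected by the same rule with another line lacking the call had shares of 54.8% for FAK-/- (interval 51.5 to 58.1%), 54.8% for FAK-nls (interval 52.4 to 57.2%) and 54.9% for FAK-kd (interval 51.4 to 58.3%). The FAK-WT set was the lowest of the 4, and its interval did not reach the others. Distal FAK-WT pair regions had 56.5% (interval 50.7 to 62.0%). These sets were chosen from the same calls, so the intervals cover the counting of regions and are no test. A shuffled control of the same letters, ACTCAGT or ACTGAGT, occurred in 12.3% of the distal regions and 13.5% of the distal shared regions.

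The AP-1 share also differed with strength, and it was read in 4 equal classes of mean strength, formed over distal regions called in at least 4 of the 6 libraries. In the weakest class, from 2.24 to 28.3, 46.0% of 591 regions (interval 42.0 to 50.1%) and 53.8% of 1458 shared regions (interval 51.2 to 56.3%) had a match. In the next, the shares were 45.4% of 163 (interval 37.9 to 53.1%) and 53.7% of 2261 (interval 51.6 to 55.7%). In the third class 55.6% of 45 regions (interval 41.2 to 69.1%) and 57.3% of 2797 shared regions had one, and the strongest class held only 4 regions. The intervals were apart in the weakest class only. Strength was not equalized within a class, and its part in the lower share was not tested. Median GC content of the distal regions was 45.4% and of the distal shared regions 46.8%. Among all libraries, 53 to 55.1% of distal called regions had a match in the 6 libraries and 56.6 and 55.6% in FAK-WT.

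The regions were unevenly distributed over chromosomes. They made up 5.02% of the regions on chromosome 19 (53 regions), 4.80% on chromosome 10 (103) and 4.53% on chromosome 13 (82), and 2.08% on the X (19), 2.10% on chromosome 5 (50) and 2.18% on chromosome 15 (43). Chromosomes 10, 13 and 19 together held 238 (19.8% of the 1203, beside 12.4% of all regions), or 4.75% of their regions against 2.73% elsewhere. Whole-chromosome signal was read beside this. At the 13172 regions called in all 8 libraries, which exclude the 1203, the median log2 pileup of chromosome 10, after centring each library, was −0.00 and −0.04 in FAK-WT and 0.06 to 0.19 in the other 6 libraries. The FAK-WT libraries were both below all others there, by −0.13 on average. The Ano4, Ank3 and Iyd regions named above lie on chromosome 10. The mean difference was −0.07 for chromosome 13 and −0.05 for chromosome 19, and these 3 were the lowest of the 20 chromosomes. On the latter 2 the libraries overlapped: FAK-WT had −0.20 and −0.24 and FAK-kd −0.26 and −0.20 on chromosome 13, and FAK-WT had −0.18 and −0.13 and FAK-nls −0.13 and −0.16 on chromosome 19. Across the 20 chromosomes, the share of regions and this difference had a Pearson correlation of −0.847 (Spearman −0.794), given as a description since all points come from the same 8 libraries. With FAK-/-, FAK-nls or FAK-kd as the lacking line the correlations were −0.552, −0.702 and −0.782. The part of chromosome-wide signal, copy number included, in the missing calls was not tested.

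**Figure D4:**
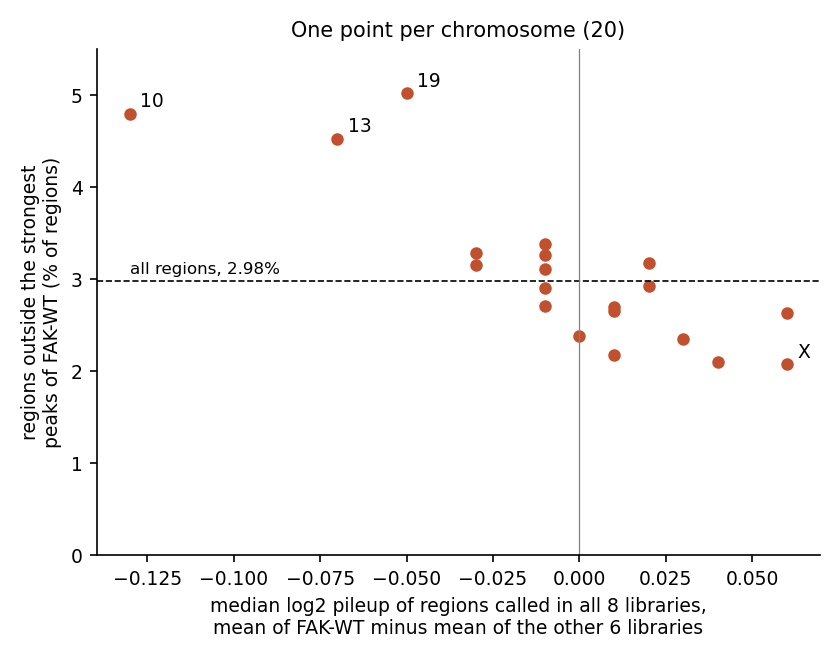
Share of the regions on each chromosome that met the rule (no FAK-WT call and at least 4 of 6 other calls), in percent, against the difference in median log2 pileup between FAK-WT and the other 6 libraries at 13172 regions called in all 8. Each point is 1 of 20 chromosomes; chromosomes 10, 13 and 19 are both highest in share (4.80, 4.53 and 5.02%) and lowest in pileup difference (−0.13, −0.07 and −0.05).

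Within chromosomes, the window of 10 Mb with the highest number ran from 30 to 40 Mb on chromosome 13 and held 18 regions, or 9.94% of its 181. The next windows along the chromosome held 14 of 197 (7.11%) and 14 of 185 (7.57%). The stretch on chromosome 13 contains the Ror2 promoter and the Nedd9 region described below. The window from 20 to 30 Mb on chromosome 15, where the Basp1, Myo10 and Trio regions lie, held fewer but a like share, 9 of 88 (10.2%). Of the 1203 regions, 30 (2.49%) had another of them within 10 kb and 264 (21.9%) within 100 kb. The shares of all 40309 regions with any other region at these distances were 45.4 and 96.8%, in a set of much higher density.

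The choice was repeated in 1 replicate and read in the other, so that the calls read were not those used to choose. Regions called in no FAK-WT replicate 1 peak taken and in at least 2 of the 3 other replicate 1 libraries numbered 3921. In replicate 2, FAK-WT called 45.1% of them, FAK-kd 47.7%, FAK-/- 57.3% and FAK-nls 61.8%. FAK-WT was lowest, by 10.4 percentage points below the mean of the others (exact permutation test over 4 libraries, two-sided, p = 0.5), but only by a little below FAK-kd. With the replicates exchanged, 3708 regions were chosen. FAK-WT replicate 1 then called 46.0% of them, and the others 54.9 to 56.0%, a difference of −9.46 points (exact permutation p = 0.25). Outside promoters the differences were −12.9 and −5.16 points for the choices in replicate 1 and replicate 2 (exact permutation p = 0.25 and 0.5), and for regions called in all 3 other libraries −12.9 and −13.5 points (exact permutation p = 0.25 for both). FAK-WT is 1 library in each of these tests and the other lines supply the spread, so p cannot go below 0.25 whatever the data. In all peaks deposited the second difference turned to 33.5 points higher in FAK-WT, whose replicate 1 list is the longest. Of the regions that were called both in FAK-WT and in at least 2 of the 3 other libraries of the choosing replicate (19377 and 19465), the other FAK-WT replicate called 91.6 and 91.5%. The same reading with another line gave −14.8 and −15.6 points for FAK-/-, −22.5 and −26.3 for FAK-nls, and −3.97 and −2.83 for FAK-kd. The FAK-WT differences lay between those of FAK-kd and FAK-/-.

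**Figure D5:**
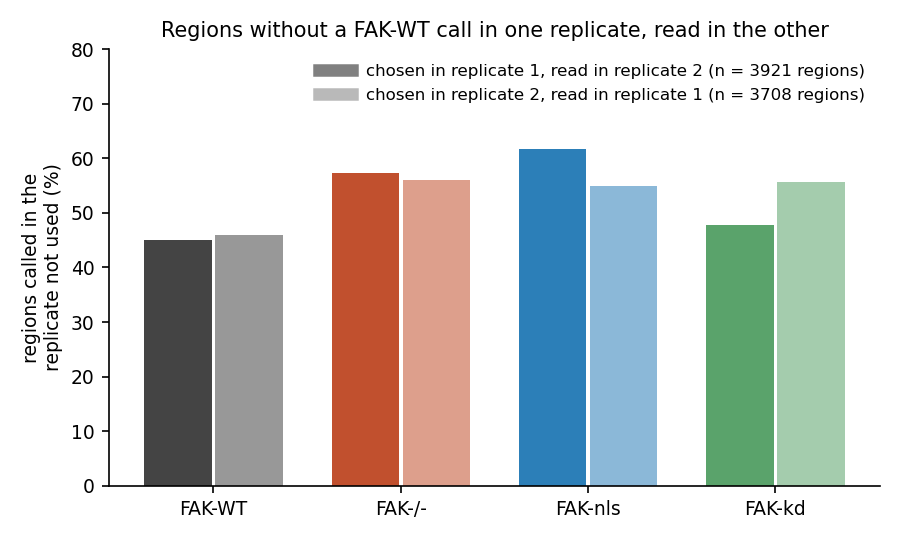
Percentage of regions called in the replicate that was not used to choose them, for the 3921 regions without a FAK-WT call chosen in replicate 1 (dark) and the 3708 chosen in replicate 2 (pale). FAK-WT called 45.1 and 46.0% of them, and the other lines between 47.7 and 61.8%.

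Genes were assigned by the nearest protein-coding TSS within 100 kb, which covered 1040 of the 1203 regions. Of 13612 genes with any region, 947 (6.96%) had at least 1 of these, and 134 (0.984%) had one called in all 6 libraries. Most, 865, had a single region, 9 had 3 and 1 had 4. Of the 9 with 3, the 4 named by strength, Ror2, Myo10, Gas7 and Klhl32, had the highest mean, ahead of Anks1b, Foxp1, Ctnnb1, Adtrp and Inpp4b. Trio, an exchange factor that activates Rac, had 4 of its 18, all intronic, of which 1 lay in the lincRNA gene Gm31458. The one called in all 6 libraries (chr15:27782570-27783523) had fold enrichments of 3.83 and 4.33 in FAK-/-, 3.73 and 3.13 in FAK-nls, 3.19 and 3.97 in FAK-kd, and 3.30 in both FAK-WT libraries. These values overlapped. Gas7, which encodes an actin-binding F-BAR protein, had 3 of its 10, with no FAK-WT replicate 1 peak at 2 of them, the promoter region included (chr11:67586076-67586748). Klhl32, a kelch-like gene, had 3 of its 6, all in introns, with FAK-WT replicate 1 at ranks 29958, 37115 and 50167. Ror2 had 3 of its 7. Its intronic region called in all 6 libraries (chr13:53266333-53267190) had 5.47 and 4.55 in FAK-/-, 3.84 and 4.82 in FAK-nls, and 4.06 and 5.83 in FAK-kd. FAK-WT replicate 1 was below all of these with 3.67, and replicate 2 had no peak.

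Of the gene lists, Wnt pathway genes had the most regions, 10 of the 127 nearest to them (7.87%, interval 4.33 to 13.9%), beside 3.02% of the 34471 regions with a coding TSS within 100 kb. They fell on 5 genes, among them Ctnnb1, the gene for β-catenin, with 3 and Tcf7l2, a β-catenin partner, with 2. The receptor gene Ror2 supplied another 3, so a few genes made up the count. Notch pathway genes had 5 of 80 (6.25%, interval 2.7 to 13.8%), at Notch2, Notch3, Jag1 and Rbpj. FGF, PDGF and IGF genes had 5 of 97 (5.15%), TGF-beta and BMP genes 6 of 139 (4.32%) and collagens 5 of 118 (4.24%), with intervals that included 3.02%. Regions of a gene are not independent, and the lists were drawn up with results known, so these intervals are no test.

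Integrins and laminins, the receptors and basement membrane ligands upstream of FAK, had 6 of 128 regions (4.69%, interval 2.17 to 9.85%, which includes the 3.02% of all such regions), spread over 6 genes of 25 (24%, beside 6.96% of all genes with a region). These genes had 128 regions in all, and a gene with more regions has more chances to hold a selected one. These were the integrin subunits Itga3 and Itgb5 and the laminin chains Lama4, Lama5, Lamb1 and Lamc1. All 6 had peaks in both complete FAK-WT lists, at ranks 24392 (Itgb5) to 46172 (Lamc1) in replicate 1 and 25656 (Itgb5) to 35092 (Lama4) in replicate 2. Genes for focal adhesion kinases, scaffolds and adaptors had 4 of 169 (2.37%, interval 0.924 to 5.93%), at Nedd9, Vcl, Tln1 and Actn1. Vinculin, talin and α-actinin, the products of the last 3, link integrins to actin. The exonic Vcl region (chr14:21032130-21032602) was called in 5 libraries. Its fold enrichment was 5.34 and 6.35 in FAK-/-, 5.40 and 7.09 in FAK-kd, 4.78 in FAK-nls replicate 2 and 4.49 and 3.61 in FAK-WT. FAK-nls replicate 1 had no peak there, so absence was not particular to FAK-WT.

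The shares of the remaining lists stand beside the 3.02% of all regions with a coding TSS within 100 kb. AP-1 and related bZIP genes had 3 of 84 (3.57%), at Jun, Fosb and Bach2, and ETS genes 2 of 72 (2.78%), at Ets2 and Erf. EGF receptor and RAS pathway genes had 5 of 135 (3.7%), epithelial-mesenchymal transition genes 1 of 79 (1.27%) and cytokines and chemokines 1 of 70 (1.43%). MHC class I, PD-L1 and interferon response genes had 2 of 27 (7.41%, interval 2.06 to 23.4%), both nearest Mx1. Keratins had 1 of 25 (4%), keratinocyte identity factors 3 of 86 (3.49%), and YAP, TAZ and TEAD genes with their targets 3 of 91 (3.3%). Matrix proteases had 2 of 80 (2.5%), homeobox and T-box factors 2 of 81 (2.47%), and p53 pathway genes and cell-cycle inhibitors 1 of 50 (2%). Cadherins, protocadherins and axon guidance genes had 1 of 139 (0.719%, interval 0.127 to 3.96%), at Slit3. None of the 24 regions nearest keratinocyte markers was among the 1203, and likewise for 7 regions at endothelial, 11 at immune and 18 at melanocyte markers. Fibroblast markers had 1 of 31, at Lum. Il33, the cytokine gene at the centre of the study, had 7 regions and Ptk2, which encodes FAK, 14, none of them selected. Values for Jun and Cdkn1a, the gene of a cell-cycle inhibitor, were looked at after the counts were known. The Jun region, called in 4 libraries, had fold enrichments of 3.37 to 3.92 in the 6 libraries and 3.17 and 3.54 in FAK-WT. The Cdkn1a promoter region lay at rank 24408 in FAK-WT replicate 2, next to the limit, and its fold enrichment of 3.97 and 3.18 in FAK-WT overlapped the 3.20 to 4.22 of the others.

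List genes with a region called in all 6 libraries were Ror2, Nedd9, Col15a1, Mx1 and Fgf1. Nedd9 encodes a Cas-family scaffold that binds FAK. Its region, 55313 bp downstream of the TSS in an intron (chr13:41431723-41432237), had fold enrichments of 5.12 and 4.46 in FAK-/-, 3.88 and 3.94 in FAK-nls, 4.60 and 4.82 in FAK-kd, and 4.41 and 3.68 in FAK-WT. The FAK-nls values lay between the FAK-WT replicates, and the groups overlapped in unscaled values. At shared regions the FAK-nls medians (4.60 and 4.79) were below those of FAK-WT (5.85 and 4.98). The Col15a1 region in an intron of this basement membrane collagen gene (chr4:47293239-47294450) overlapped too, with 3.65 to 4.89 in the 6 libraries and 4.31 and 3.68 in FAK-WT. The region nearest Mx1, an interferon-induced antiviral GTPase gene, had no protein-coding TSS closer than that of Mx1. It counted as a promoter through a Fam3b transcript start outside the protein-coding set (chr16:97475538-97476039). It had 6.88 and 5.63 in FAK-/-, 5.37 and 5.62 in FAK-nls, and 3.78 and 5.51 in FAK-kd. FAK-WT replicate 1 had 3.44 at rank 46694 and replicate 2 no peak, so all 6 libraries exceeded FAK-WT.

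Several further strong regions lay on chromosome 18. An intergenic one 275014 bp from Hrh4, a histamine receptor gene (chr18:13281595-13282508), had no peak in either complete FAK-WT list and the second highest mean strength of all. Its percentiles were 75.4 and 78.3 in FAK-/-, 83.7 and 88.4 in FAK-nls, and 44.3 and 63.9 in FAK-kd. Fold enrichment was 6.31 and 5.90, 5.64 and 5.92, and 4.77 and 6.6 in the same order. The percentiles were lowest in FAK-kd, whereas by fold enrichment the FAK-kd replicates were the lowest and the highest of the 6. The promoter region of Arhgap26, a GTPase-activating protein gene whose product binds FAK (chr18:38992608-38993448), had no FAK-WT peak and was called in 5 libraries. It had fold enrichments of 5.10 and 5.79 in FAK-/-, 4.29 and 5.11 in FAK-nls, and 4.47 and 3.65 in FAK-kd, the last past the limit. The promoter region of Osbpl1a, an oxysterol-binding protein-like gene, had FAK-WT values of 4.75 and 3.75. The other libraries had 3.65 to 6.42, so the groups overlapped. The region of Fgf1, a fibroblast growth factor gene, lay in an intron of Arhgap26 and had 3.75 to 4.65 in the 6 libraries and 4.50 and 3.93 in FAK-WT.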

How the data were processed

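ATAC-seq peaks of 8 libraries, 2 replicates in each of 4 lines, were read from the deposited lists. The authors aligned reads to mm10 within bcbio and called broad peaks per library with MACS2 (version 2.1.1 in the submitters' processing notes). Each deposited peak has a pileup (coverage signal), a −log10 p and −log10 q value and a fold enrichment, the ratio of pileup to local background, averaged over the peak and not scaled between libraries as far as stated. Read counts and the read depth per library were not used here, and intervals cover the counting of regions only. A q-value threshold of 0.05 is stated by the authors, but weaker peaks are listed and were kept.

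Only chromosomes 1 to 19, X and Y entered. A region was called where a taken peak overlapped it by at least 1 bp. In the complete lists the strongest overlapping peak was read. Promoters, introns and exons followed GENCODE M21 (132696 transcript starts), assigned by the region's centre. Intervals are 95% Wilson intervals. No pair of libraries shared more than 0.0328% identical peaks. The study calls the replicates biological. The p-values given compare single libraries of the different lines within a replicate number, so no spread between replicates enters them. The steps were tested on simulated peak lists and run with Python 3.11.15, pandas 2.3.3 and SciPy 1.17.1.

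Named regions were the 10 of highest mean strength (percentile over the 6 libraries, 0 if not called), the next 6 with no complete FAK-WT peak, the next 6 in coding promoters, the 5 genes with most regions (ties by mean strength), list genes with a region called in all 6, and those at the limit of 4 calls. Some of these are not reported here. Of 557 list genes, 552 were annotated. The members and lists were chosen with earlier results of these data known.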

Additional observations from a re-analysis of the deposited data

How the results depend on the processing

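The number of regions depended on the limits. Against 1203 it was 301 with all deposited peaks, 444 with a −log10 q of at least 3 (which left 13360 and 14889 peaks in FAK-nls), 686 with 50% of the region covered, 2430, 494 and 160 with at least 3, 5 and 6 calls, and 690 to 2593 without a replicate: 2529 and 2593 without FAK-WT replicates 1 and 2, 766 and 715 without those of FAK-/-, 690 and 706 without those of FAK-nls, and 702 and 803 without those of FAK-kd. It stayed within 1.5 times with fold ranking (1482), 20000 peaks (974), peaks of 500 bp (1238), autosomes (1184) and, chosen after seeing the data, without chromosomes 10, 13 and 19 (965). The count of 56 without a complete FAK-WT peak was 205 when FAK-WT peaks needed a −log10 q of at least 3, and 64 to 282 without a FAK-WT replicate, the latter without replicate 1. The promoter share of 33.3% was 25.6% with protein-coding transcripts (25.8% of all regions), 25.9% with all deposited peaks (24.0% of all) and 28.8 to 43.3% without a replicate. The AP-1 share of 35.2% was 28.3% in the central 300 bp (32.4% of all regions), 44.9% in the whole region (46.4%), 46.5% outside promoters (50.3%), 37.2% with all deposited peaks, where it was above and not below that of all regions (35.3%), and 30.5 to 40.9% without a replicate. The held-out difference chosen in replicate 2 turned to 33.5 points with all deposited peaks, while that chosen in replicate 1 was −19.9. For the strength of lines, a description only since it rests on the values that chose the peaks, the share between lines was 9.52% with all deposited peaks and 94.3% with fold percentiles. Leaving out replicates was not run for it. The causes were not tested.

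Replicate numbers shared only a number, since differences between replicates correlated between lines at −0.16 to 0.027 over 13172 regions. With a replicate block the share between lines was 98.7%, beside 98.0% without it.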

Other observations

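The shares of other motifs were read beside those in all regions. In all, 17 motifs were searched, AP-1 among them, so the intervals below are no test. Outside promoters, C/EBP, FOX and TCF/LEF matches were in 21.7, 8.09 and 6.72% of the 803 regions. They were in 21.7, 7.79 and 7.09% of all distal regions. Outside promoters, the CTCF consensus occurred in 2.62% of the 803 regions (interval 1.72 to 3.96%), beside 4.79% of all distal regions and 2.33% of the distal shared regions. SOX (ACAATGG) occurred in 9.96% (interval 8.08 to 12.2%), beside 7.96% and 7.82%. ETS, TEAD (CATTCCA) and RUNX (TGTGGTT) matches were in 18.7, 12.6 and 15.7% of the regions, beside 16.7, 11.6 and 17.0% of all distal regions. The SNAIL/ZEB E-box (CAGGTG) was in 21.6% of the 1203 regions (interval 19.4 to 24%), beside 24.6% of all. At promoters, ETS matches were in 15.8% of the 400 regions, beside 21.3% of all promoter regions and 23% of shared ones, and the GC box (GGGCGGG) was in 43.2% of the 400 regions, beside 47.0 and 54.0%.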
